A study of Mus musculus with 6 samples.

Results

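The 10 CXC chemokine genes Cxcl1, Cxcl2, Cxcl5, Cxcl9, Cxcl10, Cxcl11, Cxcl12, Cxcl13, Cxcl14 and Cxcl16 were taken by symbol from a deposited table of 28476 mouse genes, and all 10 were found. Transcripts were measured by RNA sequencing of whole livers from C57BL/6 mice 24 h after a 300 mg/kg dose of acetaminophen (APAP), which kills hepatocytes in overdose. Mice of both genotypes were fasted overnight and received the drug by intraperitoneal injection. The 3 HepKO libraries carry the genotype label Nedd4 HepKO, and the 3 Flox libraries carry the label Flox. The sources used here do not give the Cre driver or the age and sex of the mice. They also do not say that the libraries come from separate animals, so the p-values reflect the spread between libraries, which may be technical. Livers without the drug are not analysed here, so every difference is between genotypes after APAP.

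Chemokines of the CXC family are small secreted proteins that guide leukocytes along gradients through receptors on their surface. CXCL1, CXCL2 and CXCL5 act on CXCR2 and recruit neutrophils, the first leukocytes to enter an APAP-injured liver. CXCL9 and CXCL10 act on CXCR3 of activated T and NK cells, and CXCL12, CXCL13, CXCL14 and CXCL16 are better known for positioning cells in resting tissue.

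Nedd4, the targeted ubiquitin ligase gene, was lower in every HepKO library and had 0.618, 0.666 and 0.565 FPKM in HepKO livers and 2.18, 2.59 and 2.23 FPKM in Flox livers (log2 fold change -1.04, SE 0.10, limma adjusted p = 0.0015). FPKM, fragments counted per transcript length and mapped library size, is the deposited unit. The FPKM of a library summed to between 456176 and 496303, and 10402 to 10763 genes reached 1 FPKM. Sequencing depth is unknown from these values. HepKO replicate 1 had 24.6% of its FPKM in mitochondrial genes, against 18.3% and 17.2% in HepKO replicates 2 and 3 and 16.7% to 18.1% in Flox libraries. Hepatocyte marker transcripts summed to 39209 to 43776 FPKM in HepKO libraries and 36068 to 42980 FPKM in Flox libraries. Of the 9 tested, 0 were higher and 2 were lower, Cps1 and Hnf4a, with a median log2 fold change of -0.26. This count is near the 20.3% of all genes tested that passed in either direction. Only 1 was lower when any library other than HepKO replicate 3 was left out, and 1 was higher without HepKO replicate 2. Cps1, a urea cycle enzyme gene, kept its call without any 1 library (limma adjusted p 0.0043 to 0.014).

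The CXC chemokine transcripts had a higher sum in every HepKO liver and a different mixture, neither of which was tested as such. The 10 genes together had 178, 170.2 and 240.4 FPKM in HepKO livers, against 56.2, 85.7 and 103 FPKM in Flox livers. Every HepKO sum lay above every Flox sum. In whole liver, a change in the number of cells of a type and a change in RNA per cell cannot be told apart. Cxcl2, Cxcl10, Cxcl13 and Cxcl14 rose, and Cxcl12 fell. Of the 10 genes, 7 reached the mean of 0.5 FPKM required for testing with limma on log2(FPKM + 1). Of those 7, 4 were higher in HepKO livers and 1 was lower at an adjusted p under 0.05, and 2 did not pass. Over all 12712 genes tested, 20.3% passed in either direction, 9.33% as higher and 11.0% as lower. The median log2 fold change of the 7 tested genes was 1.64, and that of all genes tested was -0.06. Cxcl2 reached the mean of 0.5 FPKM only through its HepKO values, so its difference is in part a condition of its being tested. Over all 10 genes, 6 had every HepKO value above every Flox value, 1 had every HepKO value below, and 3 overlapped, against a background of 16.5% higher, 21.1% lower and 37.6% in either direction over genes averaging 0.1 FPKM or more. The authors' deposited table gives a q-value under 0.05 for 8 of the 10 members and for 8.97% of all its genes.

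**Figure D1:**
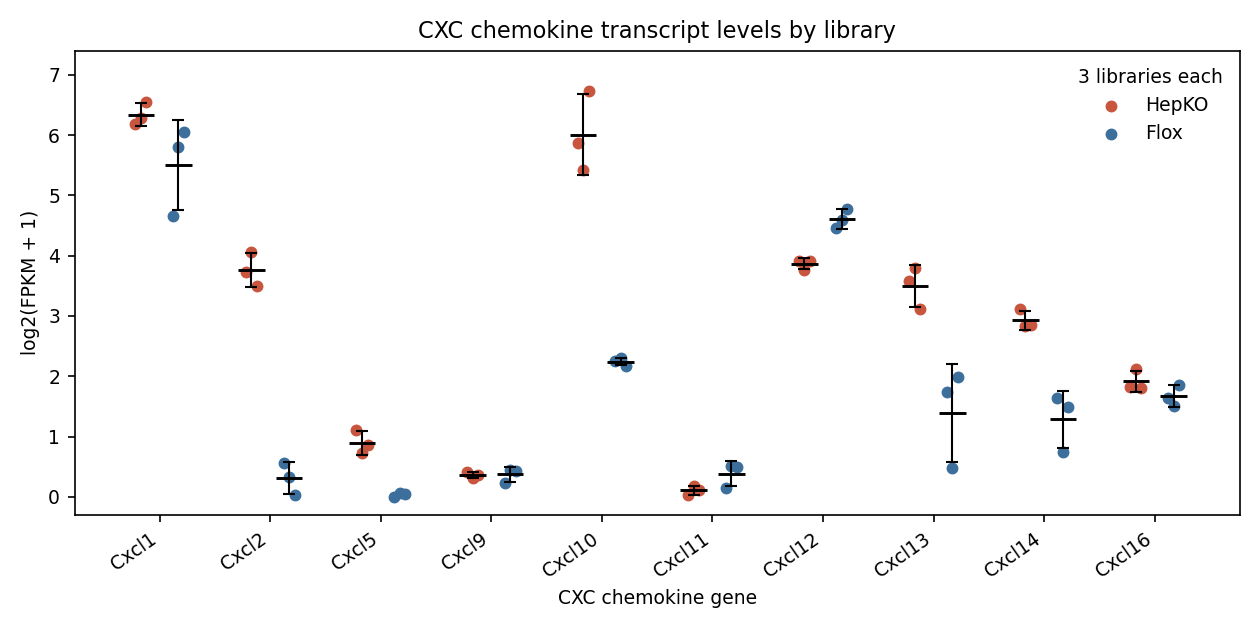
Transcript level of each CXC chemokine gene in each library, on log2(FPKM + 1), with HepKO libraries to the left of Flox libraries. Points are libraries, and horizontal lines with bars are the mean and SD over 3 libraries (drawn only where no library is listed at 0). Cxcl2 and Cxcl10 show the widest gaps between the groups, and Cxcl12 is the 1 gene with all HepKO points below all Flox points.

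Cxcl1 was the most abundant of the 10 in 5 of the 6 libraries and did not pass the test. This ligand of CXCR2 (ENSMUSG00000029380, chromosome 5, 90891241 to 90893115, GRCm38) had 71.6, 76.8 and 93.2 FPKM in HepKO livers, against 24.2, 54.8 and 65.1 FPKM in Flox livers. All HepKO values lay above all Flox values, but the Flox values spread widely and Flox replicate 1 was the lowest. The means were 80.5 ± 11.3 FPKM in HepKO livers and 48.0 ± 21.3 FPKM in Flox livers (SD, n = 3 each), a ratio of 1.68. The log2 fold change was 0.84 with a 95% limma interval of 0.0013 to 1.68, and the adjusted p was 0.14 (limma). It was 0.42 without Flox replicate 1. In the authors' deposited table Cxcl1 has a q-value of 0.0266.

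Cxcl2, a second CXCR2 ligand whose gene starts 12.6 kb after that of Cxcl1, was low in every Flox liver (ENSMUSG00000058427, chromosome 5, 90903871 to 90905938). It had 12.3, 15.7 and 10.3 FPKM in HepKO livers, against 0.476, 0.252 and 0.0268 FPKM in Flox livers. The lowest HepKO value was 21.5 times the highest Flox value. Cxcl2 rose by 3.45 on the log2 scale (95% limma interval 2.99 to 3.91, adjusted p = 0.00040), a change that the added 1 FPKM compresses. With 0.1 FPKM added instead, the log2 fold change was 5.42. The ratio of means was 50.7, and 91.4 without Flox replicate 1. Of the 50-base words in Cxcl2 transcripts, 5.84% also occur in those of Cxcl3, so a small part of the reads of either gene could be assigned to the other.

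Cxcl5, another CXCR2 ligand (ENSMUSG00000029371, chromosome 5, 90759360 to 90761624), was at low levels. It had 1.17, 0.654 and 0.806 FPKM in HepKO livers, and in Flox livers it was listed at 0 in replicate 1 and had 0.0402 and 0.0298 FPKM in replicates 2 and 3. The lowest HepKO value was 16.3 times the highest Flox value. The mean of 0.449 FPKM kept Cxcl5 out of the test. Cxcl5 reached a mean of 0.1 FPKM, too, only through its HepKO values, so the test that follows is in part a condition of its level there. In the fit that lowers the required mean to 0.1 FPKM, its log2 fold change was 0.86 (95% limma interval 0.59 to 1.14, adjusted p = 0.0055). That fit calls 14.5% of 17355 genes, 7.13% higher and 7.35% lower, and of the 10 members it calls 5 higher, Cxcl5 among them, and 1 lower.

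Cxcl1 and Cxcl2 were unequal in their difference between the genotypes. The FPKM ratio of Cxcl2 to Cxcl1 was 0.172, 0.205 and 0.110 in HepKO livers, against 0.0197, 0.0046 and 0.00041 in Flox livers. Every HepKO ratio exceeded every Flox ratio. On log2(FPKM + 1) the ratio was higher by 2.62 in HepKO livers, and by 4.57 with 0.1 FPKM added. An exact two-sided permutation test gave p = 0.10, the smallest that 3 against 3 libraries allow, so this comparison could not pass 0.05. The same p was found in each of the 3 comparisons of this kind that were made.

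The other ligands that the deposited table holds beside these genes were also higher. Cxcl3, a CXCR2 ligand, had 2.40, 1.26 and 0.727 FPKM in HepKO livers, and in Flox livers it was listed at 0 in replicates 1 and 2 and had 0.0158 FPKM in replicate 3 (log2 fold change 1.24, limma adjusted p = 0.015, and 0.052 without Flox replicate 2). Pf4, which encodes platelet factor 4, had 6.45, 7.89 and 4.55 FPKM in HepKO livers, against 1.57, 1.16 and 1.96 FPKM in Flox livers (log2 fold change 1.49, adjusted p = 0.0043, limma). Ppbp, which encodes the platelet protein that yields CXCL7, had 4.85, 4.66 and 2.10 FPKM in HepKO livers, against 0, 0.756 and 1.25 FPKM in Flox livers. Its limma adjusted p was 0.027, but 0.084 without HepKO replicate 1, 0.088 without HepKO replicate 2 and 0.070 without Flox replicate 2. Cxcl17 stayed under 0.34 FPKM in every library and was not tested, and Cxcl15 has no entry under that symbol. All 3 tested ligands were called, against 9.33% of all genes tested, and without Flox replicate 2 only Pf4 was. Cxcl3 was tested only through its HepKO values.

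**Figure D2:**
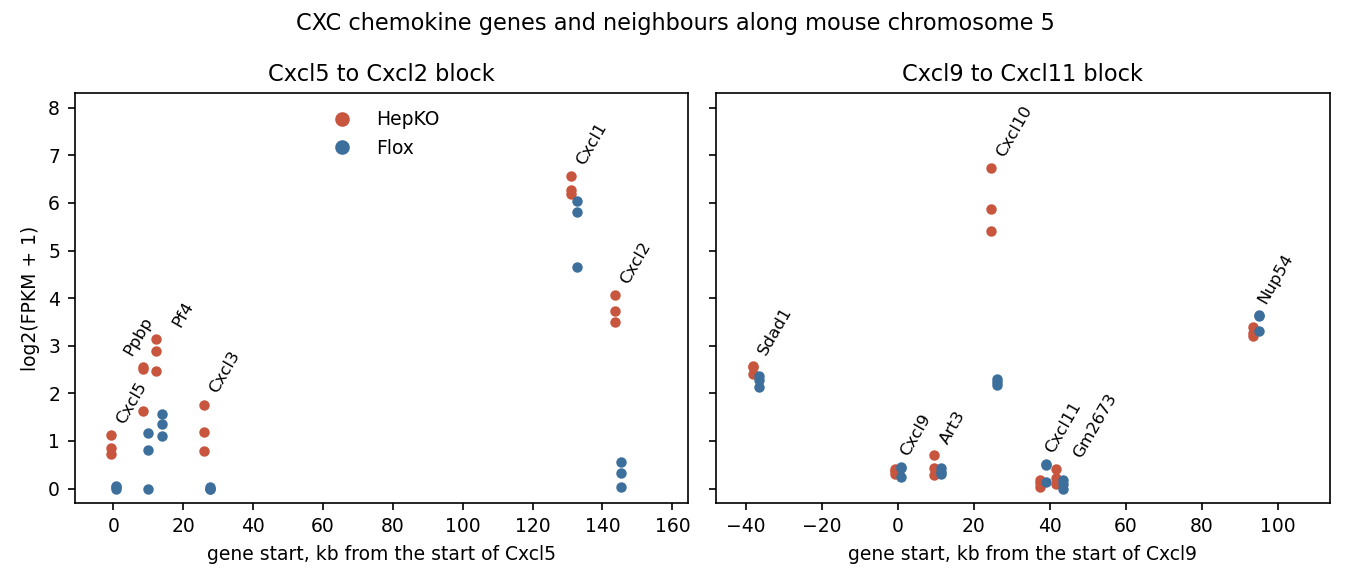
Levels of the CXC chemokine genes and their neighbours with a mean of at least 0.1 FPKM along chromosome 5, plotted by distance in kb from the start of Cxcl5 (left) and of Cxcl9 (right). Points are single libraries on log2(FPKM + 1), with HepKO points shifted slightly left of Flox points for legibility. The genes from Cxcl5 to Cxcl2 all have their HepKO points above their Flox points, while on the right only Cxcl10 is separated by a wide gap.

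The bases before the starts of these genes are shown because 3 of the CXCR2 ligand genes carry a shared stretch there. RefSeq promoters (GRCm38.p6) were found for 7 of the 10 members, all but Cxcl5, Cxcl11 and Cxcl16, and for Cxcl3, Ppbp and Pf4. The 250 bases before each start were searched on both strands for the consensus of NF-kB, a transcription factor of inflammatory signalling, for the core of the interferon-stimulated response element (ISRE; GAAA, any 2 bases, then GAAA) and for the AP-1 site TGANTCA. Of 27025 mouse promoters, 3.75% held the NF-kB consensus, 3.04% the ISRE core and 6.87% the AP-1 site in such a window. Each line gives the bases from 220 to 31 before the RefSeq start, with matches to the NF-kB consensus and the ISRE core in capitals.
Cxcl1 (chr5:90891025-90891214, plus strand): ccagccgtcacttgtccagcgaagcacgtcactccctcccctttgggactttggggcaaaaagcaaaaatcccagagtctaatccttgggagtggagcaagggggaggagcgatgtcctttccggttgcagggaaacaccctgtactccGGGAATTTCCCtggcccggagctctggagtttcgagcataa
Cxcl2 (chr5:90903679-90903868, plus strand): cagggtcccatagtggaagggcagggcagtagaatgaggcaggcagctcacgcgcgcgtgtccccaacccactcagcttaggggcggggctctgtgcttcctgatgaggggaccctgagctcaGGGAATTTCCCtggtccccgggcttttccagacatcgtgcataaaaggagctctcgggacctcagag
Cxcl3 (chr5:90785881-90786070, plus strand): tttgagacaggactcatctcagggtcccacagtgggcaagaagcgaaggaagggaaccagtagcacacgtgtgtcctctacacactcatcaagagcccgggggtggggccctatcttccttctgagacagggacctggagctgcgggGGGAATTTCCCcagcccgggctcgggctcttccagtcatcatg
Cxcl10 (chr5:92348920-92349109, minus strand): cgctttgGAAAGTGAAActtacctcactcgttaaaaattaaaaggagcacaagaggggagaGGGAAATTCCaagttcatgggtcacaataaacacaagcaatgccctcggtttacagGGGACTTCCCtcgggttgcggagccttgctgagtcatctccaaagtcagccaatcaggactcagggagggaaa
Cxcl12 (chr6:117168315-117168504, plus strand): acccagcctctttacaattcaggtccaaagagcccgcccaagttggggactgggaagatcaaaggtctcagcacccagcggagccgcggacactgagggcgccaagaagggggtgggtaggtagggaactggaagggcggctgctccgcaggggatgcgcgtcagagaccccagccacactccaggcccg
Cxcl1, Cxcl2 and Cxcl3 each held GGGAATTTCCC, where the NF-kB consensus matches both strands in overlap, beginning 71, 97 and 73 bases before the start in that order. Cxcl10 held 2 separate NF-kB matches, GGGAAATTCC and GGGACTTCCC, an ISRE core and the AP-1 site TGAGTCA. Cxcl14 held an ISRE core and Ppbp an AP-1 match. No match to any of these letters lay in the window of Cxcl9, Cxcl12, Cxcl13 or Pf4. Matches describe letters only, and no binding was measured.

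Cxcl10 and Cxcl9, which encode ligands of CXCR3, and their neighbour Cxcl11 did not move together. Cxcl10 (ENSMUSG00000034855, chromosome 5, 92346638 to 92348882) had 57.4, 41.8 and 105 FPKM in HepKO livers, against 3.75, 3.95 and 3.52 FPKM in Flox livers. The Flox values were nearly equal, and HepKO replicate 3 was the highest of all 6 libraries. Cxcl10 rose by 3.76 on the log2 scale (95% limma interval 3.02 to 4.50, adjusted p = 0.0010), with means of 68.2 ± 33.1 FPKM in HepKO livers and 3.74 ± 0.213 FPKM in Flox livers (SD, n = 3 each). The gene lies within Art3 on the opposite strand, which had 0.221 to 0.620 FPKM in HepKO livers and 0.236 to 0.346 FPKM in Flox livers.

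Cxcl9 (ENSMUSG00000029417, chromosome 5, 92321347 to 92328079), known as a target of interferon-gamma, had 0.330, 0.239 and 0.292 FPKM in HepKO livers, against 0.176, 0.365 and 0.347 FPKM in Flox livers. The groups overlapped, and with the required mean lowered to 0.1 FPKM its log2 difference had a 95% limma interval of -0.22 to 0.21 (adjusted p = 0.97). Cxcl11 (ENSMUSG00000060183, chromosome 5, 92359544 to 92365485), which GENCODE M21 annotates as a polymorphic pseudogene, had 0.0254, 0.135 and 0.0797 FPKM in HepKO livers, against 0.106, 0.423 and 0.412 FPKM in Flox livers. HepKO replicate 2 lay above Flox replicate 1, so the groups overlapped. Its interval was -0.56 to 0.0064 (limma adjusted p = 0.17), and in the authors' deposited table its q-value is 0.0438. Cxcl11 also overlaps Art3 and Gm2673 on the opposite strand, and the sources used here do not say whether reads were assigned by strand.

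The FPKM ratio of Cxcl10 to Cxcl9 was 174, 175 and 360 in HepKO livers, against 21.3, 10.8 and 10.2 in Flox livers. All HepKO ratios lay above all Flox ratios. The ratio was higher by 3.77 on log2(FPKM + 1) in HepKO livers (exact permutation p = 0.10, the smallest possible). Other genes within 100 kb of Cxcl9, Cxcl10 or Cxcl11 at a mean of at least 0.5 FPKM, which were Naaa, Sdad1, Nup54 and Scarb2, did not pass the test.

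Cxcl12 was the 1 member called lower, while Cxcl11, with a ratio of means of 0.255, was not tested at the main filter. Cxcl12 encodes the ligand of CXCR4 and ACKR3, a chemokine of resting stromal and endothelial cells (ENSMUSG00000061353, chromosome 6, 117168535 to 117181367). Cxcl12 had 14.1, 12.6 and 14.1 FPKM in HepKO livers, against 21.0, 23.0 and 26.4 FPKM in Flox livers. The 3 HepKO values were close to each other and all below the lowest Flox value. It fell by 0.74 on the log2 scale (95% limma interval -1.02 to -0.46, adjusted p = 0.0075). Compared with Cxcl2, Cxcl12 was 1.15, 0.803 and 1.38 times as abundant in HepKO livers, against 44.04, 91.3 and 986 times in Flox livers. That log2 ratio differed by -4.19 (exact permutation p = 0.10, the smallest possible).

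Cxcl13, the CXCR5 ligand that guides B cells to follicles (ENSMUSG00000023078, chromosome 5, 95956951 to 95961068), had 11.0, 12.8 and 7.62 FPKM in HepKO livers, against 2.32, 0.387 and 2.95 FPKM in Flox livers. The groups did not overlap, and Flox replicate 2 was far below the other Flox libraries. Cxcl13 rose by 2.10 on the log2 scale (95% limma interval 1.15 to 3.06, adjusted p = 0.014). Without HepKO replicate 2 the adjusted p was 0.055. The CXCR5 gene itself was at or under 0.0832 FPKM in every library. Among genes within 100 kb of Cxcl13 at a mean of at least 0.5 FPKM, Gm7993 was called higher (log2 fold change 0.69, limma adjusted p = 0.039) and Gm5559 did not pass.

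Cxcl14, a chemokine whose receptor is unsettled (ENSMUSG00000021508, chromosome 13, 56288643 to 56296551), had 7.65, 6.11 and 6.18 FPKM in HepKO livers, against 2.10, 0.679 and 1.80 FPKM in Flox livers. All HepKO values lay above all Flox values, and Flox replicate 2 was again the lowest. Cxcl14 rose by 1.64 on the log2 scale (95% limma interval 1.07 to 2.21, adjusted p = 0.0055). Cxcl16, a membrane-bound chemokine and CXCR6 ligand (ENSMUSG00000018920, chromosome 11, 70453983 to 70459984), had 2.55, 3.35 and 2.49 FPKM in HepKO livers, against 2.13, 1.83 and 2.62 FPKM in Flox livers. The groups overlapped, and its log2 difference of 0.25 had an interval of -0.09 to 0.59 (limma adjusted p = 0.26). Its gene shares 552 bases with Zmynd15 on the opposite strand. Among genes within 100 kb of Cxcl16 at a mean of at least 0.5 FPKM, Gltpd2 was called lower (log2 fold change -0.74, limma adjusted p = 0.0038). Psmb6, Pelp1, Med11, Pld2, Vmo1, Zmynd15 and Arrb2 did not pass.

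**Figure D3:**
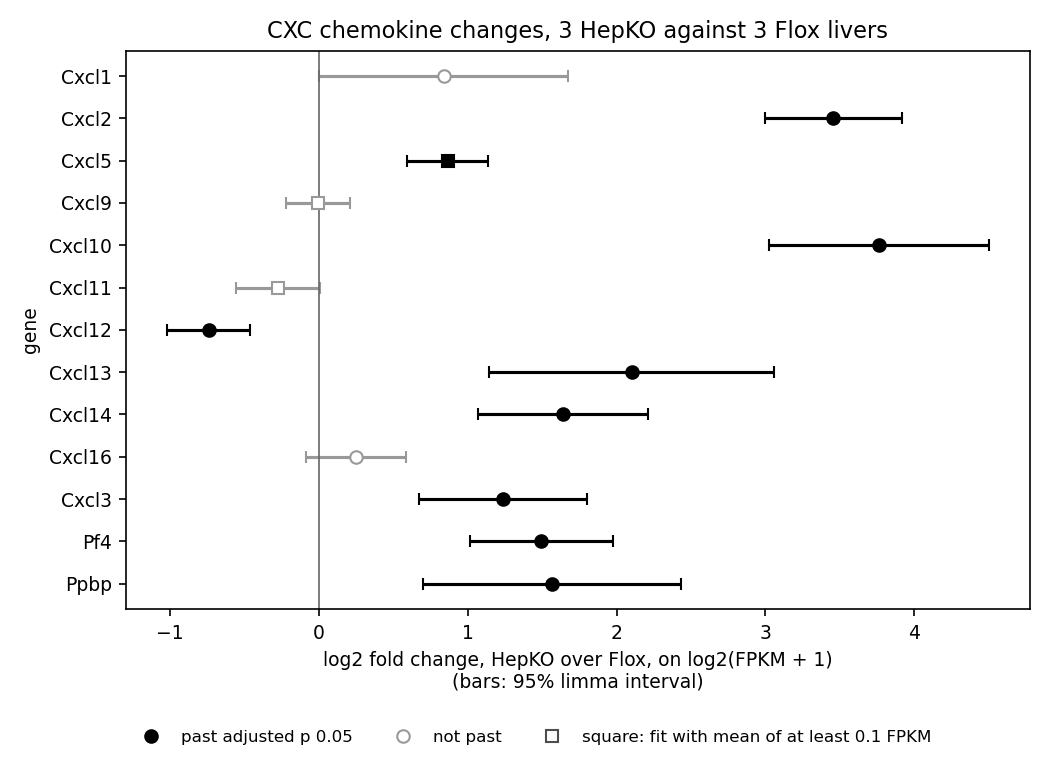
Log2 fold change of HepKO over Flox livers on log2(FPKM + 1) for the 10 members and for Cxcl3, Pf4 and Ppbp. Bars are 95% limma intervals, filled marks passed an adjusted p of 0.05, and squares come from the fit with a required mean of 0.1 FPKM. Cxcl10 and Cxcl2 have the largest values on this scale, 3.76 and 3.45, and Cxcl12 is the 1 filled mark below 0.

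Read as shares of the summed FPKM of the 10 genes, Cxcl10 took up more of the mixture in every HepKO liver. Cxcl10 made up 33.5% ± 9.71 in HepKO livers and 4.90% ± 1.65 in Flox livers (SD, n = 3 each). Cxcl1 made up 41.4% ± 3.32 in HepKO livers and 56.7% ± 11.8 in Flox livers, and its shares overlapped between the groups. Cxcl12 made up 7.07% ± 1.06 in HepKO livers and 29.9% ± 6.43 in Flox livers. Cxcl1 ranked first in all libraries except HepKO replicate 3, where Cxcl10 did. In every Flox library Cxcl12 had rank 2 and Cxcl10 rank 3. Cxcl2 had ranks 4, 3 and 4 in HepKO libraries and ranks 7, 9 and 10 in Flox libraries. These shares compare FPKM, which are per transcript length, and were not tested.

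**Figure D4:**
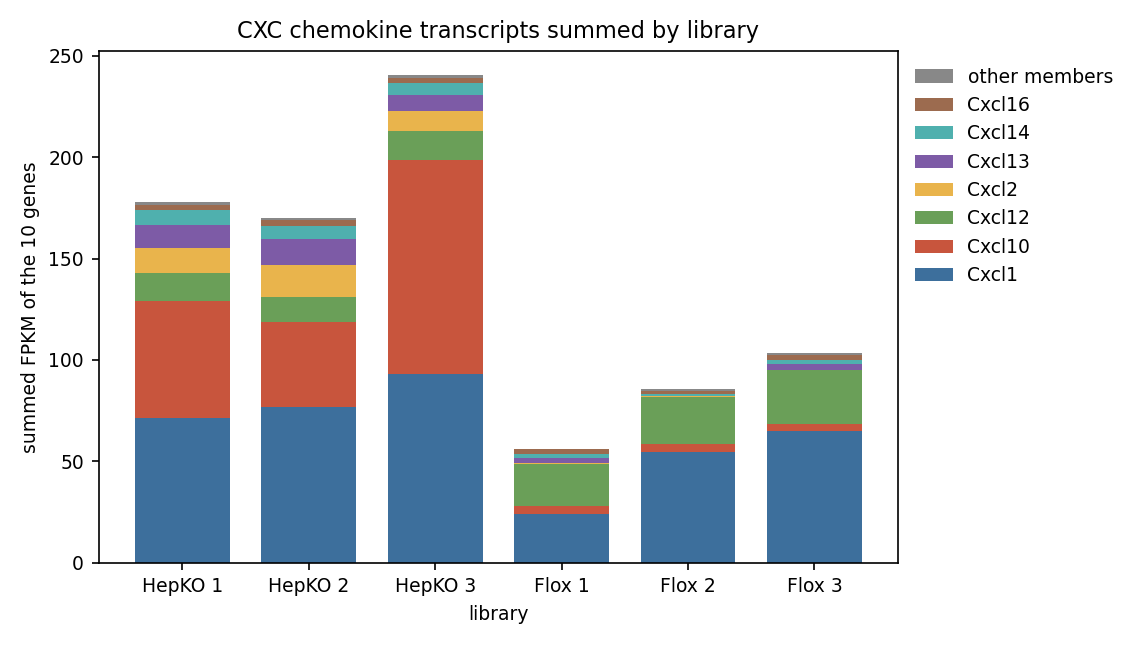
Summed FPKM of the 10 CXC chemokine genes in each library, HepKO libraries on the left. Colours give the genes, and Cxcl5, Cxcl9 and Cxcl11 are drawn as 1 block named other members. The bars reach 170.2 to 240.4 FPKM in HepKO libraries and 56.2 to 103 FPKM in Flox libraries, and the Cxcl10 block has the most FPKM added among the blocks drawn, while by ratio of means Cxcl2 differs more.

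Among the 10 receptor genes in the table, 2 were tested, and both were higher, against 9.33% of all genes tested. Cxcr2 had 2.04, 2.37 and 1.99 FPKM in HepKO livers, against 0.231, 0.138 and 0.354 FPKM in Flox livers, and rose by 1.34 on the log2 scale (limma adjusted p = 0.0011). Cxcr4 had 5.05, 4.84 and 1.49 FPKM in HepKO livers, against 0.436, 0.0575 and 0.405 FPKM in Flox livers (log2 fold change 1.79, adjusted p = 0.016, limma). The Cxcr4 call was lost without HepKO replicate 1 (adjusted p = 0.051), HepKO replicate 2 (0.056) or Flox replicate 2 (0.060). Both genes, Cxcr2 and Cxcr4, reached the mean required for testing only through HepKO values. Ackr3, which encodes a scavenging receptor of CXCL12, had 1.01, 0.469 and 0.626 FPKM in HepKO livers, against 0.148, 0.156 and 0.231 FPKM in Flox livers. It was not tested at the main filter, and passed at the lower one (limma adjusted p = 0.042). Cxcr3, the receptor of CXCL9 and CXCL10, had 0.0375 to 0.246 FPKM in HepKO livers and 0 to 0.270 FPKM in Flox livers. Cxcr1, Cxcr5, Cxcr6, Ackr1, Ackr2 and Ackr4 were not tested.

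Neutrophils, the main bearers of CXCR2, had higher marker transcripts in HepKO livers. The 14 neutrophil markers in the table summed to 148 to 169 FPKM in HepKO livers and 11.6 to 21.2 FPKM in Flox livers. Of the 14, 11 were tested and all 11 were higher in HepKO livers, against 9.33% of all genes tested. However, 7 of these 11 averaged under 0.5 FPKM in Flox livers and were tested only through HepKO values. S100a9, the most abundant, had 64.4, 79.0 and 76.2 FPKM in HepKO livers, against 9.79, 5.84 and 10.1 FPKM in Flox livers. Ly6g was listed at 0 in every Flox library and in HepKO replicate 2, and was 0.137 and 0.235 FPKM in the other HepKO libraries. Cxcr2, Mmp8 and Mmp9 belong to that list as well as to the receptor and protease lists. The part of neutrophil transcripts in the chemokine differences was not tested.

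Markers of cells that make or receive these chemokines were followed in the same way. Monocyte markers summed to 177 to 212 FPKM in HepKO livers and 99.4 to 129 FPKM in Flox livers. Of 11 tested, 6 were higher and 1 lower, against 9.33% and 11.0% of all genes tested. In all, 4 passed without HepKO replicate 1 or 2 or Flox replicate 2 or 3. Kupffer cell markers summed to 211 to 272 FPKM in HepKO livers and 147 to 204 FPKM in Flox livers, with Marco higher and Slc40a1 lower of 12 tested. That count is near the 20.3% of all genes tested that passed in either direction. The Slc40a1 call was lost when any library other than HepKO replicate 3 was left out, and with 0.1 or 0.5 FPKM added, a required mean of 0.1 FPKM or none, libraries scaled to the same total FPKM, no variance trend or the replicate block. The sums of both macrophage lists did not overlap between the groups. Platelet markers summed to 9.29 to 15.4 FPKM in HepKO livers and 2.19 to 4.79 FPKM in Flox livers, and the 2 that passed were Pf4 and Ppbp themselves.

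The receiving cells of CXCL9, CXCL10 and CXCL13 left few transcripts. T and NK cell markers summed to 1.3 to 1.80 FPKM in HepKO livers and 0.817 to 2.64 FPKM in Flox livers, and 0 of the 14 reached the mean required for testing. B cell markers summed to 0.391 to 0.924 FPKM in HepKO livers and 0.395 to 1.39 FPKM in Flox livers, and Ms4a1 was listed at 0 throughout. Both sums overlapped between the groups. Sinusoidal endothelial cells and stellate cells are known to make CXCL12. The counts that follow stand against 9.33% of all genes tested called higher and 11.0% lower, 20.3% in either direction. Endothelial markers summed to 52.6 to 71.6 FPKM in HepKO livers and 46.8 to 58.7 FPKM in Flox livers, with 4 higher and 1 lower of 13 tested, a median log2 fold change of -0.15, and 3 in all without HepKO replicate 1 or 2 or Flox replicate 1 or 3. Stellate cell markers summed to 50.9 to 71.3 FPKM in HepKO livers and 33.7 to 44.1 FPKM in Flox livers, with 4 higher and 0 lower of 12 tested, and 1 when any library other than HepKO replicate 3 was left out. The median log2 fold change of these 12 stellate markers was 0.0043. Dendritic cell markers summed to 28.5 to 47.0 FPKM in HepKO livers and 13.3 to 30.6 FPKM in Flox livers, with 2 higher and 1 lower of 5 tested, and 1 in all when HepKO replicate 1, 2 or 3 or Flox replicate 1 or 2 was left out. Cholangiocyte markers summed to 62.8 to 79.2 FPKM in HepKO livers and 31.3 to 41.2 FPKM in Flox livers, with 3 higher and 1 lower of 6 tested, and 2 in all without HepKO replicate 2 or Flox replicate 2 or 3. Spp1 belongs to the cholangiocyte list and to the monocyte list. Erythroid markers summed to 551 to 974 FPKM in HepKO livers and 132 to 234 FPKM in Flox livers, and 4 of 5 tested were higher. Mesothelial markers summed to 1.45 to 2.11 FPKM in HepKO livers and 1.41 to 1.89 FPKM in Flox livers, and the 1 tested did not pass. The part of any of these cells in the chemokine differences was not tested.

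**Figure D5:**
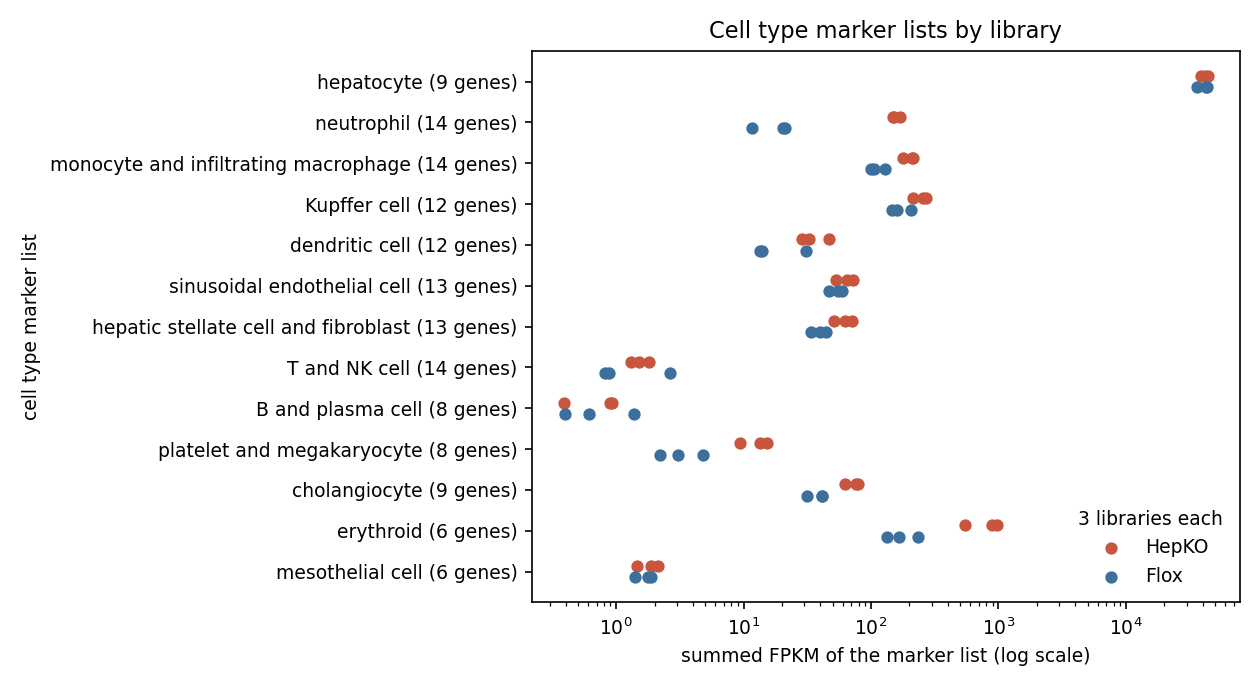
Summed FPKM of each list of cell type markers in each library, on a log scale, with HepKO points above Flox points within a row. Neutrophil markers lie at 148 to 169 FPKM in HepKO libraries and at 11.6 to 21.2 FPKM in Flox libraries, while T and NK cell and B cell markers overlap between the groups.

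Regulators of these genes were examined by lists. Of 17 tested NF-kB subunits, inhibitors and feedback genes, 7 rose and 0 fell, with a median log2 fold change of 0.39, against 9.33% of all genes tested called higher and 11.0% lower. The count was 3 without HepKO replicate 1 and 4 without Flox replicate 2 or Flox replicate 3. Nfkbiz, an NF-kB cofactor gene, rose 6.16-fold and Birc3, an NF-kB target, 1.98-fold. Nfkbia, the most abundant and an NF-kB inhibitor, was 34.3, 34.1 and 30.7 FPKM in HepKO livers, against 22.5, 12.9 and 20.2 FPKM in Flox livers, a call (limma adjusted p = 0.030) lost when any 1 HepKO library or Flox replicate 3 was left out (0.055 to 0.093). Of 10 tested genes for factors that act on the stability of chemokine mRNAs, 4 rose and 0 fell, against 9.33% of all genes tested called higher and 11.0% lower. All 4, Zfp36, Zfp36l1, Zfp36l2 and Zc3h12a, encode factors known to promote mRNA decay. The other 6 did not pass. They were Elavl1 and Traf3ip2, known for stabilising such transcripts, and Rc3h1, Khsrp, Hnrnpd and Cnot1 (ratios of means 0.95, 1.04, 1.10 and 0.86). The Zc3h12a call was lost in 5 of the 6 fits without 1 library (limma adjusted p up to 0.089). Zfp36, which encodes tristetraprolin, had 161, 135 and 157 FPKM in HepKO livers, against 31.4, 24.3 and 26.6 FPKM in Flox livers (log2 fold change 2.42, limma adjusted p = 0.00036).

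Of 19 tested inflammatory cytokine and receptor genes, 7 rose and 1 fell, against 9.33% and 11.0% of all genes tested. The total was 4 without HepKO replicate 1 or 2, or Flox replicate 2 or 3. Tnf, among those that rose, averaged under 0.5 FPKM in Flox livers and was tested only through its HepKO values. The Tnf call was lost in 5 of the 6 fits without 1 library (limma adjusted p up to 0.105). Il1b, an inducer of CXCR2 ligands, rose 4.97-fold and Il33, an alarmin, 3.17-fold. Ifng, the interferon that induces Cxcl9, was listed at 0 in all libraries except HepKO replicate 2, which had 0.025 FPKM. Of 17 tested interferon-gamma pathway genes, 2 rose and 3 fell, with a median log2 fold change of 0.018, and of 21 type I interferon pathway genes 2 rose and 2 fell, with a median of -0.35. Over all genes tested 20.3% passed in either direction, and the type I count is near that share. Irgm2, an interferon-induced GTPase gene, fell to 3.57, 3.17 and 3.06 FPKM in HepKO livers, against 7.3, 11.2 and 16.3 FPKM in Flox livers. Cd274, which encodes PD-L1, rose by 1.08 on the log2 scale. It averaged under 0.5 FPKM in Flox livers and was tested only through its HepKO values. Both interferon counts moved with single libraries: 3 of the interferon-gamma genes passed without HepKO replicate 1 and 2 without HepKO replicate 2 or Flox replicate 2. For the type I genes, 7 passed without Flox replicate 1, 2 without HepKO replicate 1 or 3, and 1 without HepKO replicate 2, Flox replicate 2 or Flox replicate 3. Of 10 proteases that cleave CXC chemokines, 4 rose and 2 fell, against 9.33% and 11.0% of all genes tested, and Dpp4, which trims CXCL10 and CXCL12, fell by 0.64 on the log2 scale (limma adjusted p = 0.0079). Of 10 tested CC chemokines and CX3CL1, 4 rose and 0 fell, against the same shares, with 1 call left without HepKO replicate 1 or 2 or without Flox replicate 1 or 2. Ccl6 was the most abundant and rose 4.19-fold.

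The genes most like each called member over the 6 libraries were found by Pearson's r on log2(FPKM + 1) among 9560 genes, as a description. Many genes separate the 2 groups, so high values are common: r exceeded 0.9 with Cxcl2 for 8.28% of genes and with Cxcl12 for 10.4%. Cxcl2 was most like Ankrd37, Tiparp and Slc16a3, Cxcl10 most like Lrrfip1, Afdn and Piezo1, and Cxcl12 most like Mrm2, Washc2 and Pla2g12a. Cxcl13 was most like Tgfbi, Fcer1g and Marco, the last a Kupffer cell marker, and Cxcl14 most like Ripk2, Stk24 and Siglece. All 15 values of r lay between 0.9937 and 0.9996.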

How the data were processed

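Liver poly(A) RNA was sequenced as paired reads from 6 dUTP-marked libraries, per the labels' protocols. The deposited table gives FPKM per gene and library, computed by the authors, with the authors' p-value and q-value per gene. Tools listed in the submitters' processing notes are HISAT2 2.0.4, StringTie 1.3.4d, cutadapt 1.9, edgeR and DESeq2. Their roles and the genome build are not given in the sources used. Of 28476 identifiers, 28396 are in GENCODE M21 and 25582 have the same GRCm38 coordinates and strand there, as do 9 of the 10 members. The Cxcl10 end differs.

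FPKM are not counts, and no count model was run. The limma test (version 3.58.1, R 4.3.3) used log2(FPKM + 1) of genes averaging 0.5 FPKM or more, genotype alone, a variance trend and Benjamini-Hochberg adjustment over all genes tested at 0.05. This scale understates changes of low genes. Ratios of 2 members were compared by exact permutation (scipy 1.17.1). The test was tried on simulated data. Deviations from the group means had same-number correlations of 0.0029, 0.0021 and -0.025, which cannot show whether the replicate numbers stand for pairs. The most frequent log2 ratios of low values between libraries held at most 2.04% of genes, so reads were not recoverable. Alternatives were other pseudocounts, filters, rescalings and variance settings, a replicate block and fits without 1 library each.

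The members, the 9 gene lists and the 13 marker lists (285 of 291 genes in the table) were chosen with earlier results of these data known. The genes named were the members, the other CXC ligands and their receptors, and the leading genes of each list, markers and neighbours.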

Additional observations from a re-analysis of the deposited data

How the results depend on the processing

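The count of CXC chemokine members past the threshold was 5 under every alternative pseudocount, rescaling and variance setting and with the replicate block. It was 6 with a required mean of 0.1 FPKM or no filter, where Cxcl5 was added, and 4 without HepKO replicate 2, where Cxcl13 was lost (limma adjusted p = 0.055). No tested member changed direction under any alternative run. The number of genes past the threshold, 2583, was 1551 with the replicate block (776 higher, 775 lower) and 1306 to 2282 when 1 library was left out, lowest without HepKO replicate 2. The cause was not tested. Calls in the lists also dropped: with the replicate block 4 NF-kB genes passed (7 without it), 3 cytokine genes (8 without it) and 1 CC chemokine (4 without it). With no filter, 4 NF-kB genes, 1 CC chemokine and 1 type I interferon gene (4 with the filter) passed, and 2 CC chemokines passed with 0.1 FPKM added or a required mean of 0.1 FPKM. Same-number libraries had correlations between -0.025 and 0.0029 in their deviations from the group means. Such values cannot show whether the replicate numbers stand for pairs. The 3 ratios of members kept their direction with 0.1 or 0.5 FPKM added and without any 1 library. Depth is unknown, so low levels, such as those of Cxcl9 and Cxcl11, of Cxcl2 and Cxcl5 in Flox livers and of Cxcl13 in Flox replicate 2, have no stated precision, and fold changes of low genes depend on the FPKM added.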
